A study of Mus musculus with 25 samples.

Results

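The genes described here encode the enzymes of the tricarboxylic acid (TCA) cycle and of mitochondrial fatty acid oxidation, with the carriers and electron acceptors that serve them. They are a list of 38 mouse genes given by name. Each gene was represented by its brightest probe set among those that the array's annotation gives to 1 gene symbol. Of the 38, 36 had such a probe set among the 8251 genes of the array that had one, and 35 passed the filter on low signals, of 6916 genes that did. Cpt1b, the muscle form of the outer carnitine palmitoyltransferase, and Hadha, the alpha subunit of the trifunctional protein, had none and are not analysed here. Acadvl, the very long-chain acyl-CoA dehydrogenase, had signals between 0.8 and 22.8 on all 25 arrays and was not tested. Counts below are out of the 35 tested genes.

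In skeletal muscle fibres, fatty acids reach the mitochondrial matrix as carnitine esters and are shortened there by a repeating cycle of oxidation, hydration, oxidation and thiolysis, which yields acetyl-CoA. Pyruvate from glycolysis gives acetyl-CoA through the pyruvate dehydrogenase complex, and the TCA cycle oxidises it and passes electrons to the respiratory chain. The genes are widely expressed, at levels that follow the mitochondrial content of a cell, and nuclear receptors such as the estrogen-related and peroxisome proliferator-activated receptors are known regulators of many of them.

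Female C57BL/6J mice, 2 to 3 months of age, were studied, and the muscle was the tibialis anterior at the front of the lower leg, which is made mostly of fast fibres. Freeze injury was made with a steel probe, 6 mm across and cooled to the temperature of dry ice, which was applied for 10 s. Contraction injury was made by 150 eccentric contractions in vivo, during which an active muscle is lengthened. Freeze groups held 3 arrays at 6 hours, 1 day and 3 days and 2 at 7 days. Contraction groups held 3 arrays at 6 hours, 3 days and 7 days and 2 at 1 day, and 3 uninjured muscles were the controls. Values are array signals on a linear scale, which the authors had brought to a common trimmed mean of 150.1 on every array. Signals of different genes come from different probes and cannot be set against each other. Changes are differences of mean log2(signal + 13) ± SE from a limma fit over 9506 probe sets and all 25 arrays, which understates the change of dim genes. A gene is called changed at a Benjamini-Hochberg adjusted p under 0.05. No label tells whether any of the samples came from the same mouse, and the p-values therefore reflect the scatter among these arrays, which may be technical.

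One array went against its label. Sample 436, labelled freeze at 3 days, correlated with the other 2 arrays of its group at only 0.803 and 0.804 over log2(signal + 13), while those 2 correlated with each other at 0.976. Its correlation with the controls was 0.947 to 0.952, within the range of 0.939 to 0.958 among the controls themselves. Of the 35 genes, 7 were below and 11 above all 3 controls in sample 436. In the other 2 freeze arrays of that day 32 and 33 were below, and 2 were above in each. This count was not made over all probe sets. It raised the spread that all groups share, with a median residual SD of 0.385 with it and 0.323 without it. Counts of called genes and changes at 3 days after freeze are therefore given with all 25 arrays and without sample 436. Sample 436 was singled out after its values were seen, because they lie near the controls. Leaving it out is thus bound to enlarge most changes at 3 days after freeze and to narrow the shared spread. The p-values without it do not allow for that choice, and that freeze group then rests on 2 arrays. Values are from all arrays where neither is named, and in comparisons that do not use that group the log2 change is the same in both fits and only its SE and p differ. None of the fast fibre or macrophage markers tested was listed at 0 on any array, which alone does not show that they were detected.

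**Figure D1:**
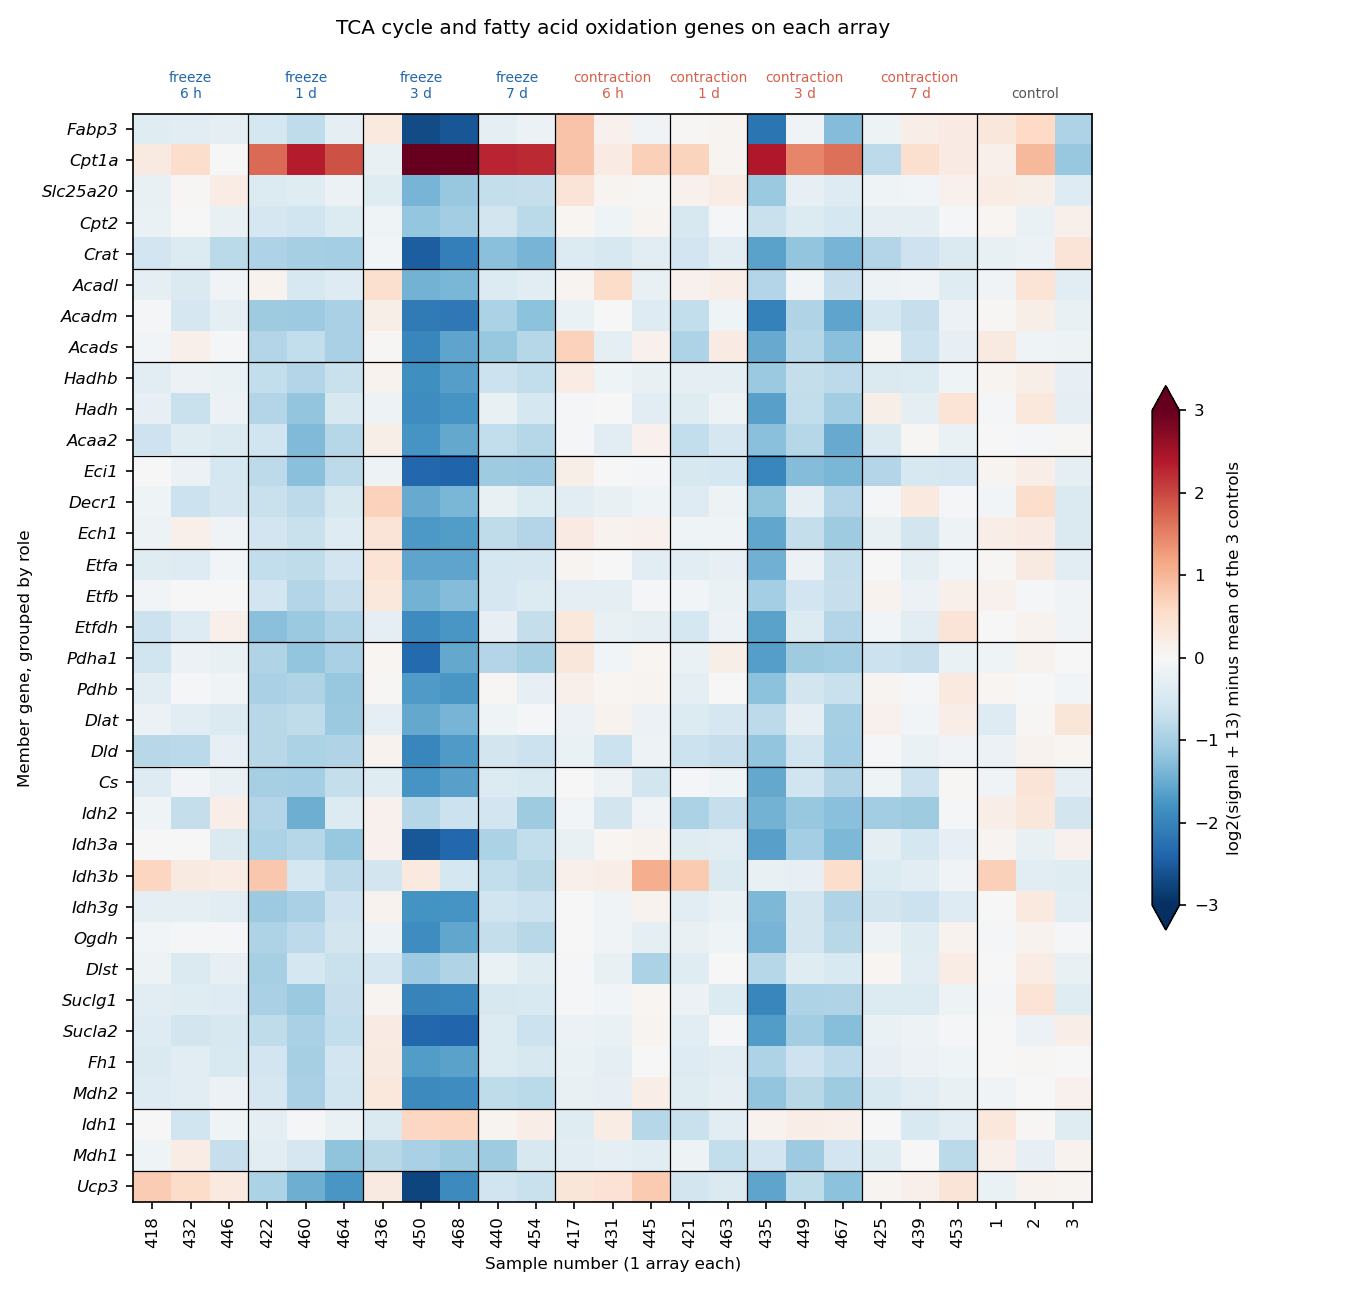
Each cell is the difference of 1 array's log2(signal + 13) from the mean of the 3 controls, for the 35 genes tested (rows, by role) on 25 arrays (columns, by group), with blue for lower and red for higher. The 2 freeze arrays at 3 days other than sample 436 are the darkest columns, and Cpt1a runs red where its neighbours run blue.

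At 3 days after freeze nearly all of the pathway was low. With all arrays 26 of the 35 genes fell and 1 rose, against 8.18% of all probe sets tested that were called lower and 9.68% called higher. The median log2 change of the 35 was -1.14, against a median between -0.09 and 0.02 over all probe sets in every comparison with control. Without sample 436, 31 fell and 1 rose, with a median of -1.72 and a range from -2.62 to 3.58, against 20.8% of probe sets lower and 21.6% higher. The gene that rose was Cpt1a in both fits. With sample 436 kept, leaving out control 1, 2 or 3 brought the count that fell to 7, 12 and 11, and leaving out sample 450 or 468, the other freeze arrays of that day, brought it to 0. Cpt1a was then called only without control 2. Idh1, Idh2 and Idh3b were the 3 genes called in neither direction without sample 436.

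At 1 day after freeze the genes lay part of the way down. Ucp3, Etfdh, Pdhb, Dlat and Dlst fell with all arrays, 5 of 35 against 5.06% of probe sets called lower, and 34 of the 35 values were negative with a median of -0.82. The count that fell was 0 without control 2, 1 without control 1 or freeze array 422, 460 or 464, 2 without control 3, and 3 with no filter on low signals. Without sample 436 the same comparison called 28 lower, against 12.0%, and Cpt1a higher, against 14.8%. Sample 436 belongs to neither group of that comparison and acts on it through the shared spread. At 6 hours after freeze no gene was called with all arrays, where 4.85% of probe sets were called in either direction, and none had an unadjusted p under 0.05. Without sample 436 Dld, the shared E3 subunit, fell with a log2 change of -0.63 ± 0.18 (adjusted p = 0.0199) and Crat, carnitine acetyltransferase, fell with one of -0.59 ± 0.18 (adjusted p = 0.0287), against 4.98% of probe sets lower. At 7 days after freeze none was called with all arrays, where 5.29% of probe sets were called in either direction. In that comparison 11 genes had an unadjusted p under 0.05, 33 values were negative and the median was -0.62. Without sample 436, 17 fell, against 7.83% of probe sets lower, and Cpt1a rose, against 11.7% higher.

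After contraction the list was also low at 3 days. With all arrays Eci1, Acadm, Crat, Idh2, Suclg1, Pdha1, Acads, Acaa2, Hadh and Cs fell, 10 of 35 against 2.58% of probe sets called lower. The median log2 change was -0.93, 32 of the 35 values were negative and 31 genes had an unadjusted p under 0.05. The count that fell was 0 when contraction array 435 was left out, 1 without array 467, control 1 or control 2, and 2 without control 3. Without sample 436, 30 fell, against 9.69% of probe sets lower, and Cpt1a rose, against 13.1% higher. Of the genes called lower at 3 days, 9 were called after both injuries, 17 after freeze alone and 1 after contraction alone with all arrays, and 29, 2 and 1 without sample 436. At 6 hours no gene was called with all arrays or without sample 436, where 1.87% and 3.36% of probe sets were called in either direction, and 0 and 2 genes had an unadjusted p under 0.05. At 1 day no gene was called in either fit, where 1.79% and 4.33% of probe sets were, and 1 and 7 genes had an unadjusted p under 0.05. At 7 days no gene was called with all arrays, where 0.537% of probe sets were called and 1 gene had an unadjusted p under 0.05. Without sample 436 only Crat was called at 7 days, lower by a log2 change of -0.64 ± 0.18 (adjusted p = 0.0477), against 0.789% of probe sets lower.

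The timing was alike across the list. Of the 4 times, 3 days had the lowest mean for 31 of the 35 genes after freeze and for 32 after contraction, whether or not sample 436 was kept. The same count was not made over all probe sets, so this timing is not shown to be particular to the list. Array by array, the median of the 35 differences from the control mean lay between -0.33 and -0.21 at 6 hours after freeze, between -0.89 and -0.69 at 1 day and between -0.64 and -0.56 at 7 days. At 3 days it was -1.78 and -1.60 in 2 freeze arrays and 0.07 in sample 436. After contraction it lay between -0.10 and -0.01 at 6 hours, between -0.36 and -0.19 at 1 day, between -1.36 and -0.60 at 3 days and between -0.31 and -0.10 at 7 days, against -0.21 to 0.11 among the controls. The arrays of the contraction group thus spread more widely at 3 days than at the other times. A test for any change over the 8 injured groups called 18 of the 35 with all arrays, against 26.2% of probe sets, and 33 without sample 436, against 49.3%. The 2 not called without it were Idh3b and Mdh1.

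**Figure D2:**
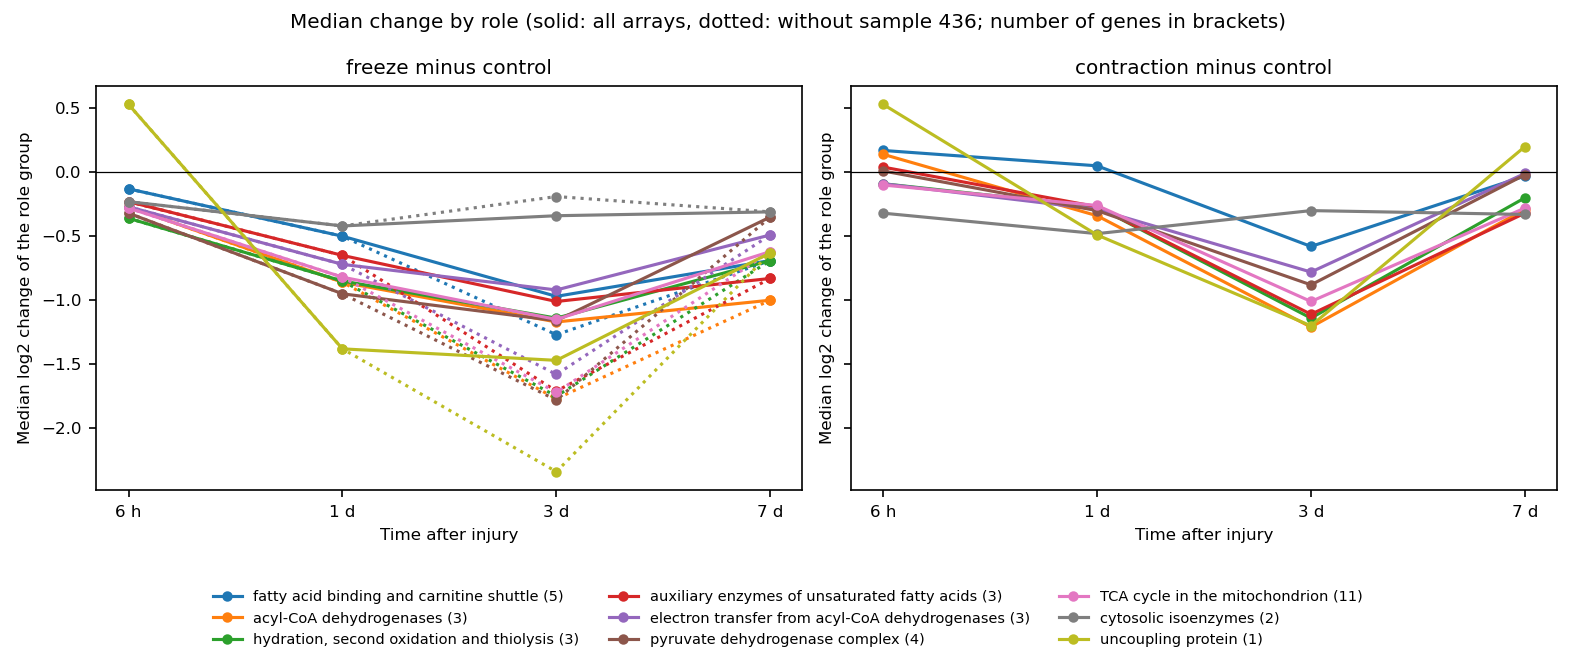
The median log2 change against the control mean of the genes in each role (y axis) is drawn over time after injury (x axis), for freeze (left) and contraction (right). Solid lines use all arrays, dotted lines leave out sample 436, and all roles but the cytosolic isoenzymes have their lowest median at 3 days after both injuries.

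The first step brings fatty acids to the matrix. Fabp3 binds fatty acids in the cytosol of heart and muscle cells, Cpt1a and Cpt2 move the acyl group onto and off carnitine, Slc25a20 carries the ester across the inner membrane, and Crat makes short carnitine esters. Of these 5, 4 fell at 3 days after freeze and Cpt1a rose, both with all arrays and without sample 436. Among all probe sets 8.18% were lower and 9.68% higher with all arrays, and 20.8% and 21.6% without sample 436. After contraction, Crat was the 1 that fell at 3 days with all arrays, against 2.58% of probe sets lower. Without sample 436 all 4 fell and Cpt1a rose, against 9.69% lower and 13.1% higher.

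Cpt1a is the carnitine palmitoyltransferase that is known as the liver form, and is found in most tissues other than muscle fibres, where Cpt1b is the main form. Cpt1a gave signals of 59.9, 75 and 46.8 at 6 hours, 184, 297 and 215 at 1 day, 39.2 (sample 436), 635 and 796 at 3 days and 284 and 275 at 7 days after freeze. Cpt1a gave 96.2, 58.5 and 85.8 at 6 hours, 83.3 and 50.8 at 1 day, 309.7, 154 and 177 at 3 days and 21.9, 71.9 and 59.2 at 7 days after contraction, against 54.9, 106 and 14.6 in controls. All freeze arrays at 1 and 7 days, and those at 3 days other than sample 436, lay above every control, as did the 3 contraction arrays at 3 days. The other groups overlapped the controls, which themselves spread between 14.6 and 106. The log2 change at 3 days after freeze was 2.31 ± 0.68 (adjusted p = 0.0263) with all arrays and 3.58 ± 0.44 (adjusted p = 6.01e-07) without sample 436. The second of these is an 11.9-fold change of the geometric mean of signal + 13. At 1 day after freeze it was 1.99 ± 0.68 (adjusted p = 0.0524) with all arrays, short of the threshold, and 1.99 ± 0.39 (adjusted p = 0.000531) without sample 436. The values at 7 days after freeze were 2.27 ± 0.76 (adjusted p = 0.0784) and 2.27 ± 0.44 (adjusted p = 0.000693). Contraction gave changes of 1.84 ± 0.68 (adjusted p = 0.0884) and 1.84 ± 0.39 (adjusted p = 0.00134) at 3 days. At 7 days after contraction the change was -0.02 ± 0.68 (adjusted p = 0.995) with all arrays.

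The summed signal of 16 macrophage markers was highest in the same 2 arrays as Cpt1a. It lay between 2990 and 5498 at 6 hours, 8314 and 11407 at 1 day and 14064 and 15004 at 7 days after freeze. On day 3 after freeze it was 39559 and 42173 in 2 arrays and 606 in sample 436, whose Cpt1a signal was 39.2. After contraction it lay between 995 and 1922 at 6 hours, 1641 and 2570 at 1 day, 12921 and 21601 at 3 days and 2328 and 5255 at 7 days, against 780 to 1097 in controls. With all arrays 13 of the 16 markers rose at 3 days after freeze, and 15 did without sample 436, against 9.68% and 21.6% of all probe sets higher. At 6 hours after freeze and at 1 and 7 days after contraction the sums were above every control while Cpt1a overlapped the controls. The part of these cells in the Cpt1a signal was not tested. In RNA of whole muscle, fewer cells of a type and less RNA per cell cannot be told apart.

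Promoter sequence is shown for Cpt1a, the gene that rose, and for Ucp3 and Sucla2, which were among the 6 largest falls at 3 days after freeze and carry the same letters. Each is the stretch of 250 bases just before the start of transcription in RefSeq's annotation of build GRCm38.p6, on the plus strand: chr19:3323051-3323300 for Cpt1a, chr7:100472741-100472990 for Ucp3 and chr14:73552536-73552785 for Sucla2. Capitals mark AGGTCA, the half-site to which many nuclear receptors bind, or its reverse complement TGACCT.
Cpt1a: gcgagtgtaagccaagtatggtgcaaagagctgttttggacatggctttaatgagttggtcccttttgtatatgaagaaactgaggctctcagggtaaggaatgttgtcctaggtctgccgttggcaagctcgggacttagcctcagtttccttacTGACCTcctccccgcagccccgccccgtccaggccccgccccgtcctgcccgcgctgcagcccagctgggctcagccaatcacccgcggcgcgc
Ucp3: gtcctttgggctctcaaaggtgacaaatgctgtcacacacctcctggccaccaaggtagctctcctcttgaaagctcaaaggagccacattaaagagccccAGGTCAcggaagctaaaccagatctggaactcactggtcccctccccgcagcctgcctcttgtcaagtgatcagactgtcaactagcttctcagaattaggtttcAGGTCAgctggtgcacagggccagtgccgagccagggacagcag
Sucla2: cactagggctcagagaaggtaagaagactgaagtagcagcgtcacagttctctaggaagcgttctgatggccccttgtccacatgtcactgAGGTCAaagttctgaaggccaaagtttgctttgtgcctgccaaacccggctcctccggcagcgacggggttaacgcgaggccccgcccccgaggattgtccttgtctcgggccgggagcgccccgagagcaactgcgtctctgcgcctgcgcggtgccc
Counted back from the start site, the match begins at -94 in Cpt1a on the minus strand, at -149 and -44 in Ucp3 on the plus strand and at -159 in Sucla2 on the plus strand. RefSeq promoters matched 31 of the genes by symbol, and AGGTCA was found on either strand in 5 of them, Acadm, Cpt1a, Fh1, Sucla2 and Ucp3. These genes have 37 promoters in the table, of which 5, or 13.5%, held it, against 14.0% of 32851 promoters of the same length. The longer TNAAGGTCA, an extended half-site that holds AGGTCA within it, was found in 0 of the 37 and in 1.14% of all promoters. CCGGAAG, the core letters of ETS family sites, was found in Cpt2, Idh3g and Slc25a20, or 8.11% of the 37, against 6.91% of all. The gene that rose and genes that fell thus hold the same half-site letters in these windows, and the matches are descriptions of sequence, not sites of binding.

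Fabp3 had signals of 1474, 1502 and 1560.1 at 6 hours, 1321, 1120.2 and 1584 at 1 day, 2351 (sample 436), 288 and 312 at 3 days and 1564 and 1695 at 7 days after freeze. Fabp3 had 3479.5, 2098 and 1782 at 6 hours, 1951 and 2010.4 at 1 day, 410.2, 1770.1 and 766 at 3 days and 1718, 2192 and 2269 at 7 days after contraction, against 2439, 2873 and 991 in controls. The 2 freeze arrays at 3 days other than sample 436 lay below every control, and all other groups overlapped the controls, whose signals ran from 991 to 2873. Its log2 change at 3 days after freeze was -1.65 ± 0.57 (adjusted p = 0.0491) with all arrays and -2.62 ± 0.42 (adjusted p = 1.98e-05) without sample 436, the largest fall of the 35 in both fits. Contraction at 3 days gave -1.20 ± 0.57 (adjusted p = 0.184) and -1.20 ± 0.37 (adjusted p = 0.022).

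Slc25a20 showed signals of 616, 733 and 843 at 6 hours, 539.7, 556 and 629.6 at 1 day, 555 (sample 436), 265 and 317 at 3 days and 430.0 and 436 at 7 days after freeze. Slc25a20 showed 941, 764 and 728 at 6 hours, 789 and 837 at 1 day, 324, 604 and 545 at 3 days and 651, 679 and 785 at 7 days after contraction, against 832, 807 and 546 in controls. Both freeze arrays at 7 days, and those at 3 days other than sample 436, were below every control, while contraction arrays at 3 days overlapped the lowest control. The carrier fell by a log2 change of -0.97 ± 0.25 (adjusted p = 0.0168) at 3 days after freeze with all arrays and -1.27 ± 0.22 (adjusted p = 6.38e-05) without sample 436. After contraction its change at 3 days was -0.58 ± 0.25 (adjusted p = 0.136) with all arrays and -0.58 ± 0.20 (adjusted p = 0.037) without sample 436.

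Crat was lower than every control in all arrays of every injured group except sample 436. Its signals were 1818 (sample 436), 336 and 454 at 3 days after freeze and 624, 833 and 726 at 3 days after contraction, against 1660.5, 1689 and 2539 in controls. With all arrays the log2 changes were -1.53 ± 0.37 (adjusted p = 0.0146) after freeze and -1.40 ± 0.37 (adjusted p = 0.0247) after contraction. Without sample 436 the change after freeze was -2.26 ± 0.20 (adjusted p = 4.59e-09). A second, dimmer probe set of Crat had changes of -0.64 after freeze and -1.06 after contraction at 3 days, neither of them called. Cpt2, the inner carnitine palmitoyltransferase, had the smallest fall of the 4 at 3 days, with a log2 change of -0.78 ± 0.21 (adjusted p = 0.0213) after freeze and -0.53 ± 0.21 (adjusted p = 0.116) after contraction. Its change after freeze without sample 436 was -1.10 ± 0.16 (adjusted p = 9.59e-06).

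The acyl-CoA dehydrogenases make the first oxidation of each round, Acadl on long, Acadm on medium and Acads on short chains. Acads read 910.3, 1072 and 942 at 6 hours, 522, 578 and 486 at 1 day, 985 (sample 436), 241 and 313 at 3 days and 430.3 and 529.5 at 7 days after freeze. Acads read 1575, 807 and 1062 at 6 hours, 506 and 1145 at 1 day, 329, 531 and 397 at 3 days and 989, 613 and 816 at 7 days after contraction, against 1177, 892 and 867 in controls. Both groups at 3 days were low, with every contraction array and the 2 freeze arrays other than sample 436 below every control. Acads fell by a log2 change of -1.17 ± 0.37 (adjusted p = 0.0366) after freeze and -1.21 ± 0.37 (adjusted p = 0.048) after contraction at 3 days with all arrays, and by -1.77 ± 0.29 (adjusted p = 2.94e-05) after freeze without sample 436. A second, dimmer probe set of Acads gave -0.42 and -0.65 at the same times, neither called.

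Acadm gave signals of 2389, 1774 and 2056 at 6 hours, 1196, 1166 and 1263 at 1 day, 2851 (sample 436), 562 and 553 at 3 days and 1299 and 1065 at 7 days after freeze. Acadm gave 2173, 2469.6 and 1909 at 6 hours, 1496 and 2285 at 1 day, 603, 1332 and 822 at 3 days and 1723, 1539 and 2198 at 7 days after contraction, against 2580.2, 2825 and 2154 in controls. Acadm was below every control at 1 and 7 days after freeze as well as at 3 days after both injuries, sample 436 apart. Its log2 changes at 3 days were -1.36 ± 0.41 (adjusted p = 0.0295) after freeze and -1.51 ± 0.41 (adjusted p = 0.0296) after contraction with all arrays, and -2.14 ± 0.25 (adjusted p = 2.77e-07) after freeze without sample 436. Acadl had signals of 346, 303 and 388 at 6 hours, 448, 296 and 313 at 1 day, 589 (sample 436), 147 and 154 at 3 days and 311 and 326 at 7 days after freeze. Acadl had 442, 615 and 358 at 6 hours, 457 and 484 at 1 day, 219, 393 and 253 at 3 days and 372, 386 and 322 at 7 days after contraction, against 384, 561 and 334 in controls. The 2 freeze arrays at 3 days other than sample 436 stood well below the controls, but the contraction arrays overlapped them. Acadl was not called at 3 days after freeze with all arrays, at -0.76 ± 0.36 (adjusted p = 0.129), and fell without sample 436, at -1.39 ± 0.25 (adjusted p = 7.98e-05). In the contraction group of that day it was called in neither fit, at -0.55 ± 0.22 (adjusted p = 0.0774) without sample 436.

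Hydration, the second oxidation and thiolysis are carried out by the trifunctional protein, of which Hadhb is the thiolase subunit, and on shorter chains by Hadh, a dehydrogenase, and Acaa2, a thiolase. All 3 fell at 3 days after freeze with and without sample 436, against 8.18% and 20.8% of probe sets lower. Hadh showed signals of 725, 538 and 771 at 6 hours, 462, 376 and 620.5 at 1 day, 780.2 (sample 436), 227 and 243 at 3 days and 741 and 599 at 7 days after freeze. Hadh showed 834, 877 and 692 at 6 hours, 673 and 775 at 1 day, 273, 510.2 and 413 at 3 days and 976, 719.9 and 1153 at 7 days after contraction, against 848, 1076 and 711 in controls. Freeze arrays at 1 day and contraction arrays at 3 days lay below every control, and arrays at 7 days after either injury overlapped them. Hadh had log2 changes of -1.27 ± 0.34 (adjusted p = 0.0193) at 3 days after freeze and -1.14 ± 0.34 (adjusted p = 0.0419) at 3 days after contraction. Without sample 436 it stood at -1.82 ± 0.25 (adjusted p = 3.3e-06) after freeze. Hadhb read 2065, 2290.0 and 2247 at 6 hours, 1532, 1394 and 1609.9 at 1 day, 2761 (sample 436), 707 and 806 at 3 days and 1644 and 1549 at 7 days after freeze. Hadhb read 3034, 2356 and 2197 at 6 hours, 2124 and 2149 at 1 day, 1186, 1566 and 1482 at 3 days and 1893, 1941 and 2342 at 7 days after contraction, against 2716, 2921 and 2159 in controls. Here freeze arrays at 1 and 7 days, contraction arrays at 1 and 3 days and the 2 freeze arrays at 3 days other than sample 436 were below every control. The log2 change of Hadhb was -1.14 ± 0.32 (adjusted p = 0.0236) after freeze and, short of the threshold, -0.87 ± 0.32 (adjusted p = 0.089) after contraction at 3 days. Without sample 436 they were -1.75 ± 0.18 (adjusted p = 3.7e-08) and -0.87 ± 0.16 (adjusted p = 0.000268).

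Acaa2 gave signals of 2931, 3501 and 3314 at 6 hours, 2985, 1791 and 2484 at 1 day, 5051 (sample 436), 1303 and 1549 at 3 days and 2696 and 2497 at 7 days after freeze. Acaa2 gave 4319, 3557 and 4958 at 6 hours, 2688 and 3166 at 1 day, 1883, 2487 and 1572 at 3 days and 3321, 4619 and 3914 at 7 days after contraction, against 4502, 4371 and 4634 in controls. In sample 436 it had the highest signal of all arrays, while the other freeze arrays at every time were below every control. Acaa2 had a log2 change of -1.05 ± 0.34 (adjusted p = 0.0401) at 3 days after freeze and -1.20 ± 0.34 (adjusted p = 0.0348) at 3 days after contraction. The freeze change became -1.65 ± 0.22 (adjusted p = 1.67e-06) without sample 436.

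Unsaturated fatty acids need further enzymes, Eci1 and Ech1, which shift double bonds, and Decr1, which reduces one. Eci1 had signals of 1384, 1203 and 942 at 6 hours, 782, 561 and 779 at 1 day, 1226 (sample 436), 257 and 249 at 3 days and 640.4 and 637 at 7 days after freeze. Eci1 had 1539, 1354 and 1312 at 6 hours, 969.8 and 949 at 1 day, 339.5, 548 and 519 at 3 days and 736, 966 and 957 at 7 days after contraction, against 1434, 1565 and 1128 in controls. All contraction arrays from 1 day on, all freeze arrays at 1 and 7 days and the 2 freeze arrays at 3 days other than sample 436 lay below every control. Eci1 had the largest fall of the list at 3 days after contraction, a log2 change of -1.54 ± 0.38 (adjusted p = 0.0172), and one of -1.63 ± 0.38 (adjusted p = 0.0137) at 3 days after freeze, which was -2.37 ± 0.21 (adjusted p = 6.7e-09) without sample 436. At 7 days it stood at -1.08 ± 0.21 (adjusted p = 0.000799) after freeze and -0.62 ± 0.19 (adjusted p = 0.077) after contraction without sample 436, of which the freeze value was called.

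Decr1 showed signals of 169.6, 116 and 128 at 6 hours, 112, 102 and 129.6 at 1 day, 311 (sample 436), 57.1 and 64.8 at 3 days and 158 and 138 at 7 days after freeze. Decr1 showed 147, 159.5 and 169.5 at 6 hours, 140.1 and 167 at 1 day, 73.4, 151 and 95.5 at 3 days and 178, 233 and 181 at 7 days after contraction, against 176, 273 and 134 in controls. Decr1 in sample 436 was the highest of all arrays, and the other 2 freeze arrays at 3 days were the lowest. Its change was not called at 3 days with all arrays, at -0.72 ± 0.39 (adjusted p = 0.187) after freeze and -0.79 ± 0.39 (adjusted p = 0.196) after contraction. Without sample 436 it fell after both, by -1.44 ± 0.26 (adjusted p = 0.000102) and -0.79 ± 0.23 (adjusted p = 0.0164) on the log2 scale. Ech1 read 1456, 1784 and 1495 at 6 hours, 1079, 999 and 1217 at 1 day, 2094 (sample 436), 474 and 491 at 3 days and 939.9 and 864 at 7 days after freeze. Ech1 read 1903, 1720.5 and 1746 at 6 hours, 1467 and 1476 at 1 day, 535, 979 and 762 at 3 days and 1368, 1090.5 and 1434 at 7 days after contraction, against 1834, 1893 and 1193 in controls. Ech1 likewise had its highest signal in sample 436, and the other 3-day arrays of both injuries were below every control. It missed the threshold at 3 days with all arrays, at -1.01 ± 0.37 (adjusted p = 0.0569) after freeze and -1.11 ± 0.37 (adjusted p = 0.0594) after contraction, and passed it without sample 436, at -1.71 ± 0.21 (adjusted p = 8.2e-07) and -1.11 ± 0.19 (adjusted p = 0.000172).

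Electrons from the acyl-CoA dehydrogenases pass to the electron transfer flavoprotein, made of Etfa and Etfb, and from it through its dehydrogenase Etfdh to ubiquinone. Etfdh gave signals of 282, 342 and 495 at 6 hours, 179, 200.5 and 228 at 1 day, 369 (sample 436), 112 and 124 at 3 days and 374 and 265 at 7 days after freeze. Etfdh gave 564, 382 and 365 at 6 hours, 304 and 394 at 1 day, 139, 334 and 239 at 3 days and 419.5, 355 and 587 at 7 days after contraction, against 453, 479 and 411 in controls. Freeze arrays at 1 day were low and close together, and all 3 freeze arrays at 3 days lay below every control, sample 436 included. Etfdh fell by a log2 change of -1.10 ± 0.35 (adjusted p = 0.038) at 1 day after freeze and -1.30 ± 0.35 (adjusted p = 0.0192) at 3 days, the second being -1.82 ± 0.29 (adjusted p = 1.97e-05) without sample 436. Etfdh stood at -0.96 ± 0.35 (adjusted p = 0.0838) with all arrays and -0.96 ± 0.26 (adjusted p = 0.00883) without sample 436 at 3 days after contraction.

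Etfa had signals of 710.1, 697 and 869.9 at 6 hours, 546, 532 and 606 at 1 day, 1211 (sample 436), 296 and 298 at 3 days and 633 and 642 at 7 days after freeze. Etfa had 960.5, 913 and 716 at 6 hours, 719 and 768 at 1 day, 326, 809 and 550.1 at 3 days and 916, 743 and 858 at 7 days after contraction, against 933, 1110.5 and 737 in controls. Etfa after contraction ranged at 3 days from 326 to 809, which overlaps the lowest control. The change was not called at 3 days after freeze with all arrays, at -0.92 ± 0.37 (adjusted p = 0.0807), and was called without sample 436, at -1.58 ± 0.24 (adjusted p = 1.45e-05). Etfb showed signals of 1232, 1301 and 1309.7 at 6 hours, 866, 697 and 800.0 at 1 day, 1616 (sample 436), 482 and 524 at 3 days and 919.9 and 984 at 7 days after freeze. Etfb showed 1066, 1055 and 1247 at 6 hours, 1220.0 and 1125 at 1 day, 635, 871 and 797 at 3 days and 1399.6, 1155 and 1439 at 7 days after contraction, against 1432, 1279 and 1204 in controls. Every freeze array at 1 and 7 days and every contraction array at 3 days was below the controls, while sample 436 was above them. For Etfb the corresponding log2 changes at 3 days after freeze were -0.80 ± 0.29 (adjusted p = 0.0568) and -1.35 ± 0.16 (adjusted p = 3.93e-07).

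The pyruvate dehydrogenase complex holds the E1 subunits Pdha1 and Pdhb, the E2 subunit Dlat and the E3 subunit Dld, which also serves the 2-oxoglutarate complex. All 4 genes fell at 3 days after freeze in both fits, against 8.18% of probe sets lower with all arrays and 20.8% without sample 436. After contraction Pdha1 alone fell at 3 days with all arrays, and all 4 fell without sample 436, against 2.58% and 9.69%. Dlat read 334, 299.8 and 275 at 6 hours, 206, 219.9 and 168 at 1 day, 313 (sample 436), 123 and 135 at 3 days and 343 and 373 at 7 days after freeze. Dlat read 334, 409 and 333 at 6 hours, 281 and 262 at 1 day, 214, 311 and 182 at 3 days and 413, 356 and 435 at 7 days after contraction, against 289, 386 and 487 in controls. The freeze arrays at 1 day and the 2 at 3 days other than sample 436 were below every control, and the freeze arrays at 7 days lay among the controls. Dlat fell by a log2 change of -0.90 ± 0.26 (adjusted p = 0.0258) at 1 day and -1.07 ± 0.26 (adjusted p = 0.0149) at 3 days after freeze, against -0.08 ± 0.29 (adjusted p = 0.887) at 7 days. Its 3-day change without sample 436 was -1.47 ± 0.21 (adjusted p = 6.25e-06). A second, dimmer probe set of Dlat had a change of -0.06 at 3 days after freeze.

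Dld gave signals of 1030.0, 1048 and 1545 at 6 hours, 1039, 952 and 986 at 1 day, 1982 (sample 436), 464 and 560.3 at 3 days and 1262 and 1178 at 7 days after freeze. Dld gave 1604, 1179.9 and 1648 at 6 hours, 1182 and 1138 at 1 day, 802, 1219 and 908 at 3 days and 1788, 1614 and 1722 at 7 days after contraction, against 1645, 1986 and 1929.5 in controls. All freeze arrays except sample 436 lay below every control, from 6 hours on. The log2 change of Dld at 3 days after freeze was -1.19 ± 0.34 (adjusted p = 0.0238) with all arrays and -1.83 ± 0.20 (adjusted p = 9.61e-08) without sample 436.

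Pdhb had signals of 2005, 2391 and 2292 at 6 hours, 1259, 1312 and 1123 at 1 day, 2548 (sample 436), 753 and 732 at 3 days and 2529 and 2089.9 at 7 days after freeze. Pdhb had 2743, 2574 and 2636 at 6 hours, 2008 and 2507 at 1 day, 1043, 1678 and 1552 at 3 days and 2617, 2424 and 3034 at 7 days after contraction, against 2585, 2503 and 2357 in controls. Pdhb was below every control at 1 day after freeze and at 3 days after contraction, and at 7 days both groups overlapped the controls. It fell by -1.01 ± 0.31 (adjusted p = 0.0367) at 1 day after freeze on the log2 scale and by -1.14 ± 0.31 (adjusted p = 0.022) at 3 days, or -1.72 ± 0.18 (adjusted p = 8.19e-08) without sample 436. Pdha1 had signals of 2256, 1858 and 2141 at 1 day after freeze, 4382 (sample 436), 834 and 1455 at 3 days after freeze and 1332, 2001 and 2040.0 at 3 days after contraction, against 3849, 4572 and 4270.1 in controls. All of these but sample 436 were below the lowest control. Pdha1 had a log2 change of -1.26 ± 0.37 (adjusted p = 0.0262) at 3 days after freeze and -1.26 ± 0.37 (adjusted p = 0.0399) at 3 days after contraction, and the freeze change without sample 436 was -1.92 ± 0.24 (adjusted p = 6.02e-07).

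**Figure D3:**
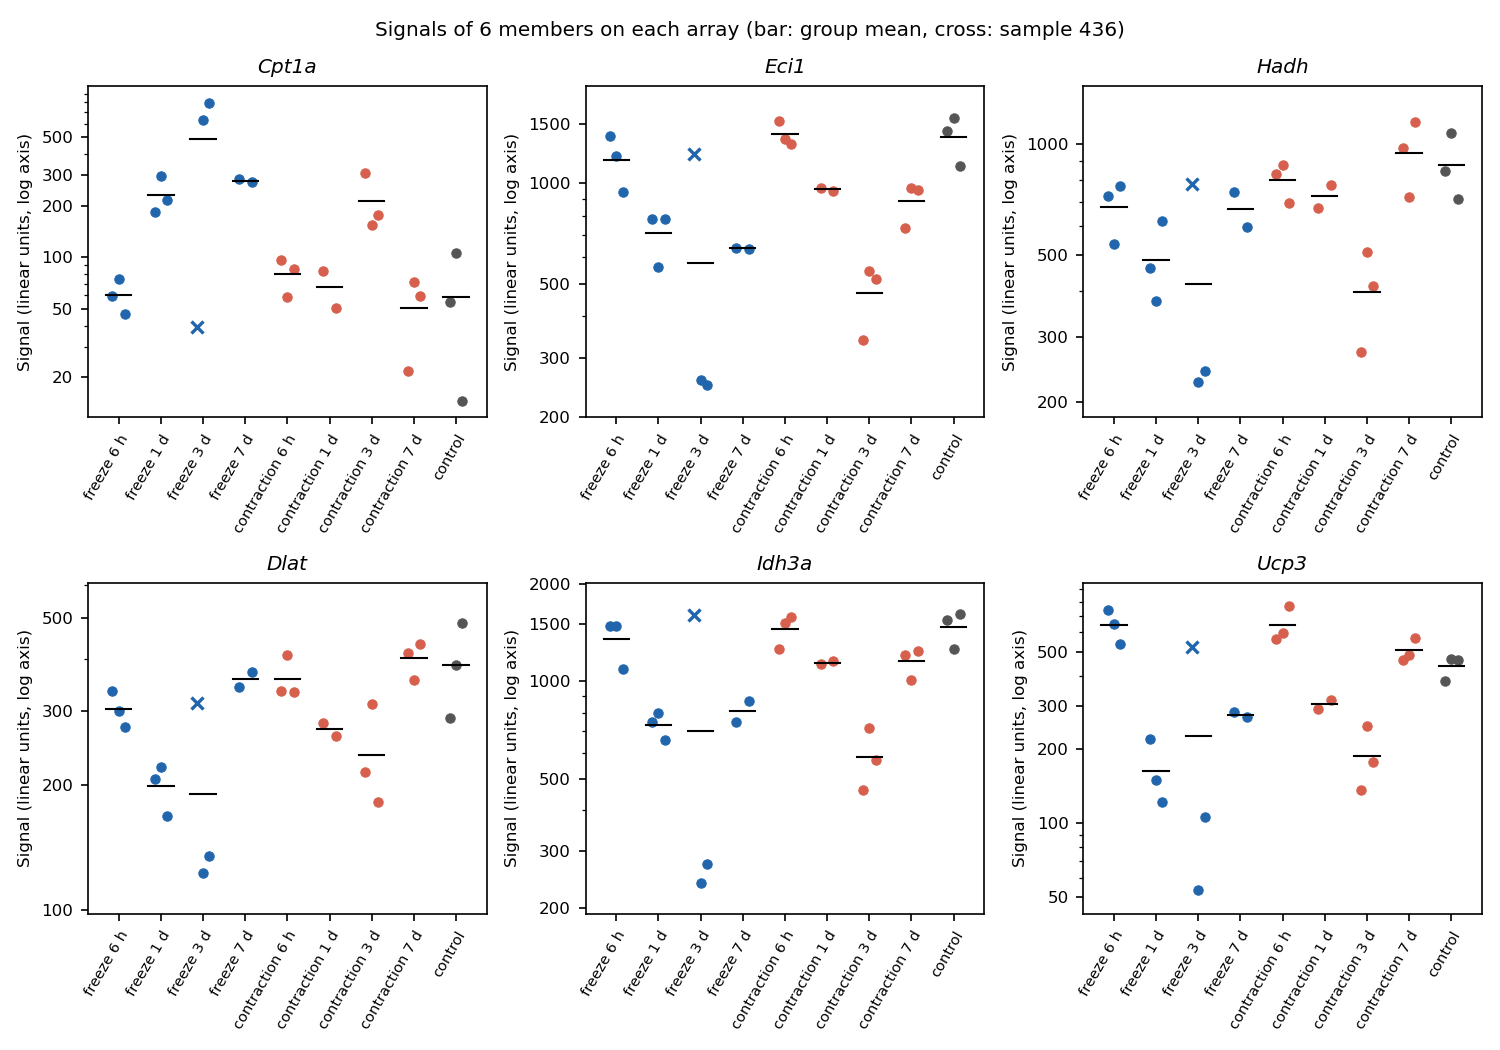
Signals of 6 genes (y axis, log scale) are plotted for every array by group (x axis), 1 point per array with the group mean as a bar and sample 436 marked. Cpt1a is highest in 2 freeze arrays at 3 days, where Eci1, Hadh, Dlat, Idh3a and Ucp3 are lowest, and sample 436 sits in or near the control range.

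In the TCA cycle 9 of 11 mitochondrial genes fell at 3 days after freeze, both with all arrays and without sample 436. The shares of all probe sets called lower in these 2 fits were 8.18% and 20.8%. The 2 genes that did not fall were Idh2 and Idh3b. After contraction 3 fell with all arrays, Idh2, Suclg1 and Cs, and 9 fell without sample 436, against 2.58% and 9.69% of probe sets lower. Cs, citrate synthase, opens the cycle, and had signals of 2016 (sample 436), 747 and 821 at 3 days after freeze and 884, 1699 and 1373 at 3 days after contraction, against 2409, 3396 and 2099 in controls. All 6 injured values were below the lowest control, sample 436 included. Cs fell by a log2 change of -1.25 ± 0.31 (adjusted p = 0.0149) after freeze and -1.01 ± 0.31 (adjusted p = 0.0464) after contraction, and by -1.70 ± 0.25 (adjusted p = 6.4e-06) after freeze without sample 436.

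Isocitrate dehydrogenase is made by several genes, and their calls differed. The genes were not tested against each other. Idh3a, Idh3b and Idh3g encode the subunits of the NAD-dependent enzyme of the cycle, Idh2 the NADP-dependent enzyme of mitochondria and Idh1 that of the cytosol. Idh3a showed signals of 1484, 1479 and 1088 at 6 hours, 751, 797 and 656 at 1 day, 1598 (sample 436), 239 and 273 at 3 days and 748 and 867 at 7 days after freeze. Idh3a showed 1253, 1516 and 1576 at 6 hours, 1128 and 1151 at 1 day, 463, 718 and 571 at 3 days and 1206, 1011 and 1238 at 7 days after contraction, against 1548, 1253 and 1613 in controls. Apart from sample 436, Idh3a was below every control at 1, 3 and 7 days after both injuries. Its log2 change at 3 days was -1.60 ± 0.42 (adjusted p = 0.0176) after freeze and -1.33 ± 0.42 (adjusted p = 0.0508) after contraction with all arrays, and -2.46 ± 0.19 (adjusted p = 9.11e-10) and -1.33 ± 0.17 (adjusted p = 5.19e-06) without sample 436. Idh3g read 1659.6, 1662 and 1605 at 6 hours, 939, 1024 and 1319.7 at 1 day, 2193 (sample 436), 575 and 581 at 3 days and 1332 and 1297 at 7 days after freeze. Idh3g read 2014, 1889.9 and 2168 at 6 hours, 1600.5 and 1776 at 1 day, 784, 1381 and 1083 at 3 days and 1375, 1283 and 1550.1 at 7 days after contraction, against 2053, 2487 and 1632 in controls. Contraction arrays at 3 and 7 days were below every control, as were the freeze arrays at 1 and 7 days. For Idh3g the log2 change at 3 days was -1.15 ± 0.34 (adjusted p = 0.0265) after freeze and -0.93 ± 0.34 (adjusted p = 0.0843) after contraction with all arrays, and -1.79 ± 0.20 (adjusted p = 2.07e-07) after freeze without sample 436. A second, dim probe set of Idh3g was not called, at -0.96 at 3 days after freeze.

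Idh3b gave signals of 37.2, 25.9 and 24.7 at 6 hours, 43.7, 9.5 and 5.6 at 1 day, 9.1 (sample 436), 26.3 and 9.3 at 3 days and 6.2 and 5.2 at 7 days after freeze. Idh3b gave 23.1, 24.2 and 55.4 at 6 hours, 42.2 and 11 at 1 day, 14.7, 14.2 and 33.6 at 3 days and 11.1, 13 and 17 at 7 days after contraction, against 39.7, 12.4 and 12.1 in controls. Idh3b signals were dim on all arrays and overlapped the controls in every group but freeze at 7 days. It was called in no comparison, with a log2 change of -0.26 ± 0.42 (adjusted p = 0.681) at 3 days after freeze and -0.79 ± 0.47 (adjusted p = 0.311) at 7 days. Idh2 had signals of 791, 526 and 997 at 6 hours, 463, 305 and 656 at 1 day, 947 (sample 436), 473 and 547 at 3 days and 580.2 and 406 at 7 days after freeze. Idh2 had 821, 585 and 801 at 6 hours, 441 and 536 at 1 day, 316, 385 and 357 at 3 days and 415, 407 and 839 at 7 days after contraction, against 1007, 1110.2 and 585 in controls. Both 7-day freeze arrays, the 2 freeze arrays at 3 days other than sample 436, both contraction arrays at 1 day and all 3 at 3 days were below every control. Idh2 fell at 3 days after contraction, by a log2 change of -1.27 ± 0.33 (adjusted p = 0.0232), and was not called at 3 days after freeze, at -0.46 ± 0.33 (adjusted p = 0.323) with all arrays and -0.76 ± 0.33 (adjusted p = 0.0685) without sample 436. The difference between the injuries at 3 days was itself not called, at 0.81 ± 0.33 (adjusted p = 0.499) with all arrays and 0.52 ± 0.33 (adjusted p = 0.32) without sample 436.

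Idh1 showed signals of 113, 70.9 and 104 at 6 hours, 91.8, 113 and 98.4 at 1 day, 81.4 (sample 436), 184 and 189 at 3 days and 122 and 134 at 7 days after freeze. Idh1 showed 86.1, 135 and 58 at 6 hours, 67 and 88.4 at 1 day, 124, 134 and 130.1 at 3 days and 115, 79.8 and 88.9 at 7 days after contraction, against 147, 118 and 87.1 in controls. The 2 freeze arrays at 3 days other than sample 436 were the highest of all 25, and every other group overlapped the controls. The log2 change of Idh1 at that time was 0.28 ± 0.28 (adjusted p = 0.5) with all arrays and 0.64 ± 0.26 (adjusted p = 0.055) without sample 436, short of the threshold in both.

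The 2-oxoglutarate dehydrogenase complex is made of Ogdh, Dlst and Dld, and succinyl-CoA ligase of Suclg1 with Sucla2 in its ATP-forming version. Ogdh read 2213, 2270.4 and 2245 at 6 hours, 1231, 1359 and 1605 at 1 day, 2104 (sample 436), 631 and 788 at 3 days and 1426 and 1307 at 7 days after freeze. Ogdh read 2380.1, 2175 and 1903 at 6 hours, 2016 and 2138 at 1 day, 879.7, 1586 and 1319 at 3 days and 2119.9, 1811 and 2538 at 7 days after contraction, against 2272, 2538 and 2239 in controls. All 3 freeze arrays at 3 days, sample 436 included, were below every control, as were freeze arrays at 1 and 7 days. Ogdh fell by a log2 change of -1.20 ± 0.30 (adjusted p = 0.0161) at 3 days after freeze with all arrays and -1.72 ± 0.20 (adjusted p = 3.62e-07) without sample 436, and stood at -0.93 ± 0.30 (adjusted p = 0.0569) at 3 days after contraction. Dlst fell by -0.73 ± 0.23 (adjusted p = 0.0425) at 1 day and -0.83 ± 0.23 (adjusted p = 0.0232) at 3 days after freeze on the log2 scale, and without sample 436 by -1.0 ± 0.24 (adjusted p = 0.00145) at 3 days. A second probe set of Dlst had changes of -0.71 and -0.77 at 1 and 3 days, neither called. Its adjusted p-values were 0.179 and 0.122 in the fit with no filter on low signals.

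Sucla2 gave signals of 2344, 2092 and 2208 at 6 hours, 1792, 1566 and 1829.5 at 1 day, 3619.7 (sample 436), 589 and 578 at 3 days and 2285 and 1959 at 7 days after freeze. Sucla2 gave 2704, 2662 and 3219 at 6 hours, 2441 and 2947 at 1 day, 957, 1469 and 1265 at 3 days and 2668, 2768 and 2946 at 7 days after contraction, against 3016, 2719.5 and 3502 in controls. Sample 436 was the highest of the 25 arrays and the other 2 freeze arrays of that day were the lowest. The log2 change of Sucla2 was -1.50 ± 0.42 (adjusted p = 0.0223) at 3 days after freeze with all arrays and -2.37 ± 0.18 (adjusted p = 5.42e-10) without sample 436, and -1.33 ± 0.16 (adjusted p = 1.86e-06) at 3 days after contraction without it. A second probe set of Sucla2 had the same change of -1.50 at 3 days after freeze but a wider spread. Its adjusted p was 0.105 in the fit with no filter on low signals. Suclg1 had signals of 2099.7 (sample 436), 491 and 499.7 at 3 days after freeze and 499.8, 1043 and 1068 at 3 days after contraction, against 1947, 2645 and 1536 in controls. Both injuries brought Suclg1 below every control except in sample 436. Its log2 changes were -1.30 ± 0.38 (adjusted p = 0.0262) after freeze and -1.26 ± 0.38 (adjusted p = 0.0431) after contraction, with -1.98 ± 0.25 (adjusted p = 7.09e-07) after freeze without sample 436.

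Fumarase, Fh1, and malate dehydrogenase, Mdh2, close the cycle, and Mdh1 is the cytosolic malate dehydrogenase of the malate-aspartate shuttle. Fh1 was below every control on all arrays of all 8 injured groups except sample 436. Its log2 change was -1.01 ± 0.32 (adjusted p = 0.0346) at 3 days after freeze and -0.78 ± 0.32 (adjusted p = 0.119) at 3 days after contraction, with -1.64 ± 0.15 (adjusted p = 1.32e-08) after freeze without sample 436. Mdh2 had signals of 6365, 6642 and 7334 at 6 hours, 5924, 4217 and 5475 at 1 day, 10370.0 (sample 436), 2218 and 2286 at 3 days and 4892 and 4770.4 at 7 days after freeze. Mdh2 had 7159.7, 7085 and 9594 at 6 hours, 6473 and 6971 at 1 day, 3669.9, 4692 and 3950.0 at 3 days and 6090.1, 6695 and 7185 at 7 days after contraction, against 7797, 8217 and 9073 in controls. Mdh2 was highest in sample 436, and the other freeze arrays at all 4 times were below every control. It fell by a log2 change of -1.15 ± 0.38 (adjusted p = 0.0411) at 3 days after freeze with all arrays and -1.88 ± 0.19 (adjusted p = 3.23e-08) without sample 436, and was not called after contraction at -1.03 ± 0.38 (adjusted p = 0.0895). Mdh1 showed signals of 172, 221 and 111 at 6 hours, 149, 129 and 74.4 at 1 day, 100.5 (sample 436), 89.5 and 83.3 at 3 days and 83.4 and 132 at 7 days after freeze. Mdh1 showed 149, 155 and 148 at 6 hours, 167 and 107 at 1 day, 123, 80.9 and 122 at 3 days and 145, 187 and 102 at 7 days after contraction, against 209, 156 and 205 in controls. All 3 freeze arrays at 3 days were below every control, sample 436 among them, and so were the 3 contraction arrays of that day. The freeze arrays at 1 and 7 days and the contraction arrays at 6 hours were also below every control. Mdh1 fell by -0.96 ± 0.28 (adjusted p = 0.0246) at 3 days after freeze on the log2 scale, and by -1.02 ± 0.30 (adjusted p = 0.00853) without sample 436.

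Ucp3 encodes a carrier of the inner mitochondrial membrane found mainly in skeletal muscle, whose message is known to rise with circulating fatty acids. Ucp3 read 742, 646 and 535 at 6 hours, 221, 149.9 and 122 at 1 day, 524 (sample 436), 53.5 and 106 at 3 days and 284 and 270.4 at 7 days after freeze. Ucp3 read 562, 597 and 765 at 6 hours, 293 and 319 at 1 day, 137, 250.3 and 177 at 3 days and 463, 485 and 571 at 7 days after contraction, against 381, 468 and 465 in controls. At 6 hours all 6 injured arrays were above every control, and at 1 and 3 days all but sample 436 were below every control. The log2 change at 6 hours was 0.53 ± 0.44 (adjusted p = 0.601) after freeze and 0.53 ± 0.44 (adjusted p = 0.782) after contraction, and neither was called. Ucp3 fell by -1.38 ± 0.44 (adjusted p = 0.0411) at 1 day after freeze, the largest fall of the list at that time, and by -1.47 ± 0.44 (adjusted p = 0.0293) at 3 days on the log2 scale, or -2.34 ± 0.26 (adjusted p = 1.35e-07) without sample 436. At 3 days after contraction the change was -1.20 ± 0.44 (adjusted p = 0.0897) with all arrays and -1.20 ± 0.23 (adjusted p = 0.000494) without sample 436. At 7 days it was -0.63 ± 0.49 (adjusted p = 0.448) after freeze and 0.20 ± 0.44 (adjusted p = 0.932) after contraction.

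Freeze and contraction muscles were compared with each other at each time, which does not use the controls. With all arrays no gene of the list was called at any time. Of all probe sets, 0.305% were called in either direction at 6 hours, and 0 of the 35 genes had an unadjusted p under 0.05. The share called was 1.45% at 1 day, with 4 of the genes at an unadjusted p under 0.05. It was 0.389% at 3 days with 1 such gene, and 0.368% at 7 days with 2. Without sample 436 the 3-day comparison called 21 genes lower after freeze than after contraction, against 8.1% of probe sets, and Cpt1a higher, against 8.85%. The median log2 difference of the 35 was -0.72 there and -0.21 with all arrays. The largest differences were those of Fabp3, at -1.42 ± 0.42 (adjusted p = 0.0198), Ucp3, at -1.14 ± 0.26 (adjusted p = 0.00315), Idh3a, at -1.13 ± 0.19 (adjusted p = 0.000244), and Sucla2, at -1.04 ± 0.18 (adjusted p = 0.000266). Fabp3 signals in that comparison were 288 and 312 after freeze against 410.2, 1770.1 and 766 after contraction. The freeze group then held 2 arrays, and the value rests on them.

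By role, 4 of the 5 binding and carnitine genes and all 3 electron transfer genes were lower after freeze in that comparison. So were 3 of 4 pyruvate dehydrogenase genes and 7 of 11 TCA cycle genes. The count was 1 of 3 for the acyl-CoA dehydrogenases, Acadl, for the next steps, Hadhb, and for the auxiliary enzymes, Eci1. The share of all probe sets lower was 8.1%, and the roles were not tested against each other. Acads, Acadm and Acaa2 also had negative log2 differences, of -0.56 ± 0.29, -0.63 ± 0.25 and -0.45 ± 0.22, that were not called. At 1 day 8 genes were lower after freeze, against 3.72% of probe sets, and Cpt1a higher, against 6.42%. They were Pdha1, at -1.01 ± 0.24 (adjusted p = 0.00674), Ucp3, at -0.89 ± 0.26 (adjusted p = 0.0287), Pdhb, at -0.86 ± 0.18 (adjusted p = 0.00312), Cs, Idh3g, Sucla2, Idh3a and Etfb. At 7 days Ucp3, at -0.83 ± 0.26 (adjusted p = 0.0498), and Crat, at -0.68 ± 0.20 (adjusted p = 0.0356), were lower, against 1.63%, and Cpt1a higher, against 5.64%. The Cpt1a differences were 1.62 ± 0.44 (adjusted p = 0.0192) at 1 day, 1.74 ± 0.44 (adjusted p = 0.00724) at 3 days and 2.29 ± 0.44 (adjusted p = 0.0019) at 7 days. At 6 hours none was called, where 2.36% of probe sets were and 1 gene had an unadjusted p under 0.05.

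**Figure D4:**
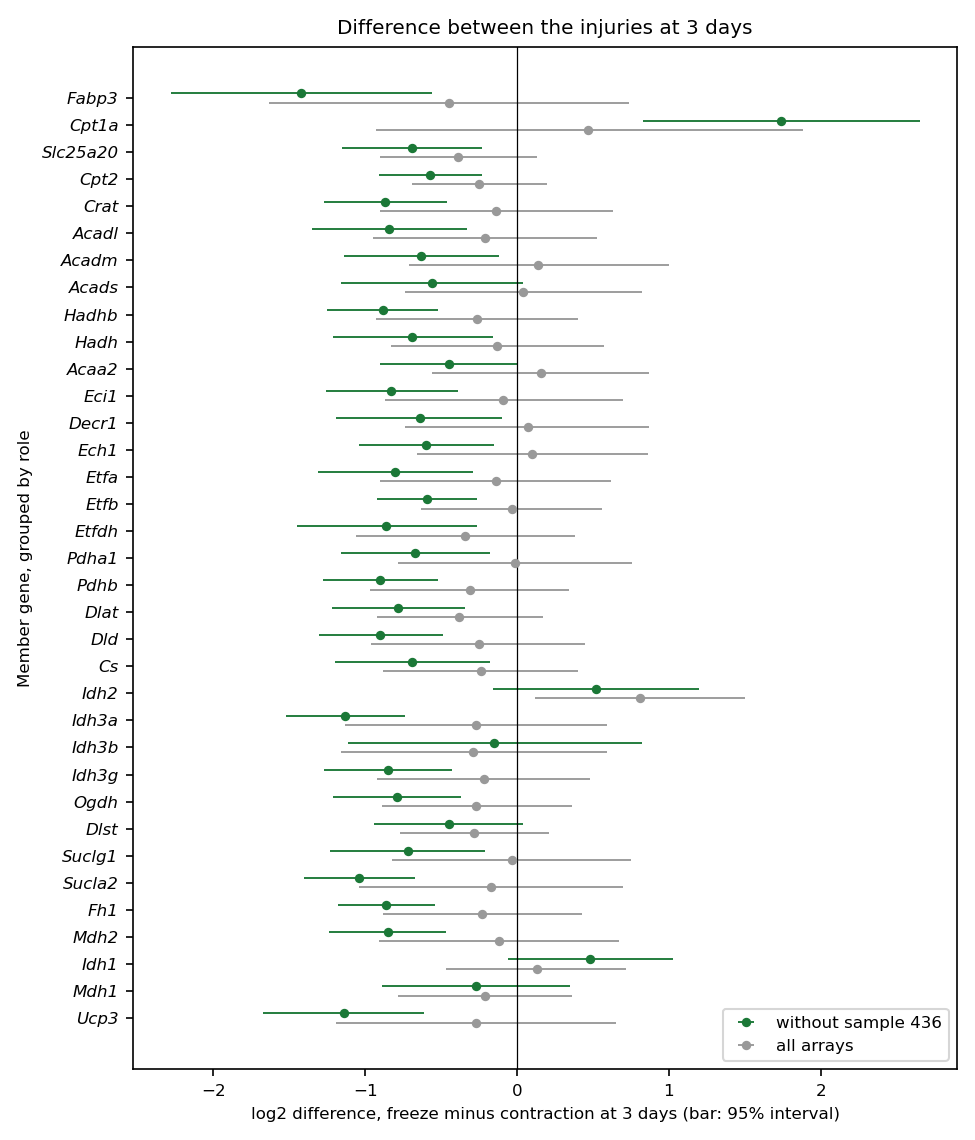
The log2 difference at 3 days, freeze minus contraction (x axis), is drawn for each of the 35 genes (rows) with its 95% confidence interval as a bar, with all arrays and without sample 436. With sample 436 the points crowd near 0, and without it most lie to the left, Fabp3 farthest, and Cpt1a lies to the right.

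Whether the difference between the injuries changed with time was tested as an interaction. With all arrays 0 of the 35 genes were called in it, against 0.589% of probe sets. Without sample 436 Cpt1a was the 1 gene called, with an adjusted p of 0.0278, against 4.45% of probe sets.

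The return between 3 and 7 days was also tested within each injury. With all arrays no gene changed between 7 days and 3 days after freeze, where 0.81% of probe sets did, or after contraction, where 0.842% did. The median log2 difference, 7 days minus 3 days, was 0.41 after freeze and 0.77 after contraction, and 7 and 22 genes had an unadjusted p under 0.05. Without sample 436, 26 genes were higher at 7 days than at 3 days after freeze, against 8.22% of probe sets, with a median of 1.07. Fabp3 had the largest difference, at 2.39 ± 0.46 (adjusted p = 0.000654), with Sucla2 at 1.84 ± 0.19 (adjusted p = 1.31e-06) and Ucp3 at 1.71 ± 0.28 (adjusted p = 0.000164). After contraction 24 were higher at 7 days, against 5.26%, and Cpt1a was lower, at -1.86 ± 0.39 (adjusted p = 0.00236), against 7.88% of probe sets lower. Ucp3, at 1.40 ± 0.23 (adjusted p = 0.000225), Fabp3, at 1.30 ± 0.37 (adjusted p = 0.0212), and Hadh, at 1.24 ± 0.23 (adjusted p = 0.000614), led the genes that were higher. Cpt1a signals were 21.9, 71.9 and 59.2 at 7 days against 309.7, 154 and 177 at 3 days after contraction, and 284 and 275 against 39.2 (sample 436), 635 and 796 after freeze, where the difference without sample 436 was -1.31 ± 0.48 (adjusted p = 0.0654).

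Other genes of the same pathways were read from the same fit, with 47 tested. On day 3 after freeze 11 fell and 2 rose with all arrays, and 22 fell and 6 rose without sample 436, with median log2 changes of -0.45 and -0.62. The shares of all probe sets were 8.18% lower and 9.68% higher with all arrays and 20.8% and 21.6% without sample 436, so the 2 and 6 of 47 that rose lie below the share of all. Genes outside the list for the TCA cycle and for enzymes beside it, Pcx and Me1, moved most evenly: 5 of 7 fell with all arrays and 6 of 7 without sample 436. They include the succinate dehydrogenase genes, of which Sdha fell by -1.45 ± 0.44 (adjusted p = 0.0312), and the cytosolic malic enzyme gene Me1, which fell by -1.37 ± 0.43 (adjusted p = 0.0346) on the log2 scale. The other largest falls were in nuclear receptor genes, Rxrg at -1.59 ± 0.52 (adjusted p = 0.0393) and Esrra, the estrogen-related receptor alpha, at -1.52 ± 0.29 (adjusted p = 0.00866). Both had fallen at 1 day after freeze, Rxrg by -2.52 ± 0.52 (adjusted p = 0.0031) and Esrra by -1.38 ± 0.29 (adjusted p = 0.00361) on the log2 scale. Oxct1, which activates ketone bodies, at -1.18 ± 0.33 (adjusted p = 0.0214), and Slc22a5, the carnitine importer, at -1.08 ± 0.27 (adjusted p = 0.0123), completed the 4 largest of 6 falls at 1 day. Of all probe sets 5.06% were called lower at that time with all arrays.

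Genes that rose among these were few. Pdk3, a kinase that switches off pyruvate dehydrogenase, rose at 3 days after freeze by 1.75 ± 0.57 (adjusted p = 0.0393), and Fabp5, a fatty acid binding protein found in macrophages and skin, by 1.13 ± 0.35 (adjusted p = 0.0333) on the log2 scale. Without sample 436 Pdk3 stood at 2.74 ± 0.42 (adjusted p = 1.2e-05), Pparg at 1.82 ± 0.40 (adjusted p = 0.000698), Fabp5 at 1.75 ± 0.25 (adjusted p = 4.14e-06) and Acsl5, which activates long-chain fatty acids, at 1.56 ± 0.23 (adjusted p = 8.06e-06). Acsl5 was the 1 gene that rose at 1 day after freeze with all arrays, at 1.10 ± 0.34 (adjusted p = 0.0366). Without sample 436 the largest falls at 3 days were Rxrg at -2.36 ± 0.44 (adjusted p = 0.000134), Me1 at -2.23 ± 0.24 (adjusted p = 9.62e-08), Sdha at -2.19 ± 0.33 (adjusted p = 1.14e-05) and Slc25a11, the 2-oxoglutarate carrier, at -2.11 ± 0.21 (adjusted p = 3.68e-08). After contraction 5 of the 47 fell and 0 rose at 3 days with all arrays, and 18 fell and 2 rose without sample 436, against 2.58% of all probe sets lower with all arrays and 9.69% lower and 13.1% higher without sample 436.

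Markers of fast muscle fibres moved with the list. Of 18 markers 17 were tested, and their summed signal lay between 166058 and 185990 at 6 hours, 100551 and 159129 at 1 day and 134250 and 139797 at 7 days after freeze. In the freeze group at 3 days it was 45218 and 57618 in 2 arrays and 267892 in sample 436. After contraction it lay between 165677 and 244252 at 6 hours, 153061 and 182147 at 1 day, 103895 and 135758 at 3 days and 148007 and 203804 at 7 days, against 172774 to 269208 in controls. The fibre markers thus reached their lowest sums in the same arrays as the pathway genes. Of the 17, 8 fell at 3 days after freeze with all arrays and 16 did without sample 436, with a median log2 change of -2.29 without it, against -1.72 for the 35 pathway genes. Among all probe sets 8.18% were lower in the first of these fits and 20.8% in the second, where 21.6% were higher. After contraction 0 of them fell at 3 days with all arrays and 12 without sample 436, against 2.58% and 9.69% of all probe sets lower. Fibroblast markers were higher at 3 days after freeze for 6 of 8 without sample 436 and for 0 of 8 with it. Of 8 markers of satellite cells and regenerating fibres, 5 were higher and 1 lower at 3 days after freeze without sample 436, and 6 were higher after contraction. Without sample 436, 13.1% of all probe sets were higher at 3 days after contraction. Slow fibre markers split, with 4 of 8 higher and 3 lower after freeze without sample 436. Endothelial markers gave 1 of 7 higher and 2 lower there, neutrophil markers 0 of 7 higher and 1 lower, and none of the 2 adipocyte markers tested was called. Counts as small as those of the endothelial and neutrophil lists lie near the share of all probe sets. The ratio of 3' to 5' signal of the actin control probes, a measure of RNA integrity, lay between 0.657 and 0.955 at 6 hours, 1.01 and 1.31 at 1 day, 0.741 and 1.09 at 3 days and 0.776 and 0.808 at 7 days after freeze. After contraction it lay between 0.572 and 0.669 at 6 hours, 0.617 and 0.641 at 1 day, 0.923 and 1.21 at 3 days and 0.522 and 0.716 at 7 days, against 0.560 to 0.595 in controls. For the Gapdh control probes the ratio lay between 0.81 and 0.944 at 6 hours and 0.825 and 1.037 at 1 day after freeze. It lay between 0.878 and 0.995 at 3 days and 0.797 and 0.946 at 7 days after freeze. After contraction the Gapdh ratio lay between 0.86 and 0.984 at 6 hours, 0.861 and 0.942 at 1 day and 0.923 and 1.116 at 3 days. At 7 days it lay between 0.897 and 0.987, against 0.869 to 1.13 in controls. The part of fibre content, of other cells and of RNA integrity in the changes of the pathway genes was not tested.

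**Figure D5:**
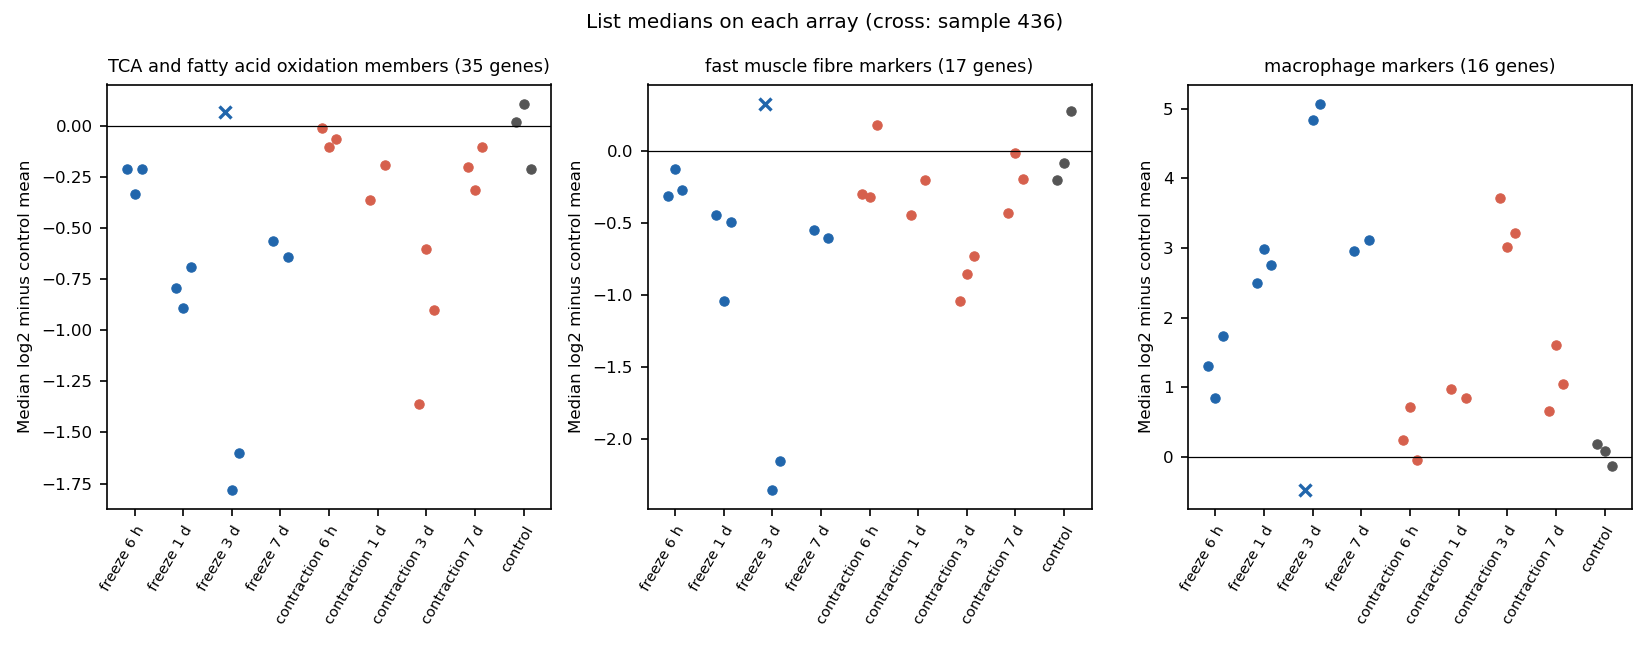
Each point is 1 array's median difference from the control mean in log2(signal + 13) (y axis), by group (x axis), over the 35 pathway genes, the 17 fast fibre markers and the 16 macrophage markers, with a cross for sample 436. Pathway genes and fast fibre markers are lowest, and macrophage markers highest, in the 2 other freeze arrays at 3 days, while the cross lies close to the controls.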

How the data were processed

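Total RNA of 25 tibialis anterior muscles, taken up in TRIzol and cleaned on RNeasy columns per the labels' protocols, was measured on the A array of the Affymetrix U74 mouse set. The deposited values are linear intensity signals that the authors made with MAS5, per the submitters' processing notes; its version is not given in the sources used here. Leaving out 2% of the values at each end, the mean of every array was 150.1. Of 12488 probe sets, 10855 had 1 gene symbol in the array's annotation, 396 had several and 1237 had no entry there. The 66 Affymetrix controls were left out, and a probe set was tested where 2 or more arrays held it above their own 40th percentile, which left 9506.

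Groups and array numbers came from the labels, which share no replicate numbers between groups. With R 4.3.3 and limma 3.58.1, log2(signal + 13) was fitted with 1 mean per group and moderated variances with a trend, and p-values were adjusted by the Benjamini-Hochberg method within each comparison. The value 13 lies near the 19.9th percentile of all signals. The procedure was tested on simulated data. There were 16 residual and 5.46 prior degrees of freedom. For a gene with several probe sets, the one with the highest mean was used. Values of every array are given for the genes with the largest and smallest F statistic in each role, for all genes of roles with 3 or fewer, and for isoform sets. In each comparison the 3 largest called falls and rises are named, and of the other pathway genes the 4 largest at 1 and 3 days after freeze. Values of further genes were added after they were seen. The genes and lists were chosen with earlier results of these data known. Alternatives were a pseudocount of 50, no filter, quantile normalization, centring on the array median, adjacent sample numbers as a random block, other probe sets, and leaving out each array. The small number of arrays limits the precision. Promoters are those of RefSeq, build GRCm38.p6.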

Additional observations from a re-analysis of the deposited data

Results flagged for a closer look

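The comparisons below stood out because the response of the same gene differed between the injuries in a direct test, and each holds only without sample 436. The adjusted p of Cpt1a for a difference between freeze and contraction that changes over the 4 times was 0.0278. It was the 1 gene of the 35 called in that test, against 4.45% of probe sets. In freeze minus contraction, 9 of the 35 genes were called at 1 day. Of these 8 were lower, against 3.72% of probe sets, and Cpt1a higher, against 6.42%. At 3 days 22 were called, 21 lower, against 8.1%, and Cpt1a higher, against 8.85%. At 7 days 3 were, Ucp3 and Crat lower, against 1.63%, and Cpt1a higher, against 5.64%. A single gene of 35 lies below each share given for the interaction and for higher genes. With all 25 arrays none of these was called. The part of macrophage and fibre content in these differences was not tested.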

How the results depend on the processing

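The counts of called genes kept within 1.5 times of those given under a pseudocount of 50 and quantile normalization. Genes lower at 3 days after contraction numbered 5 with no filter and 5 with arrays centred on their median, against 10. At 1 day after freeze 3 were lower with no filter, against 5, and 1 was higher with adjacent sample numbers as a random block (correlation -0.094), against 0; without a filter more probe sets enter the adjustment, and otherwise the cause was not tested. Leaving out 1 array at a time moved most counts, with the highest count at sample 436 unless another array is named. Genes lower numbered 0 to 31 at 3 days after freeze (0 without array 450 or 468, and 7, 12 and 11 without control 1, 2 and 3), and genes higher 0 to 1 (0 without control 1, control 3, 450 or 468). At 1 day after freeze 0 to 28 were lower (0 without control 2, 1 without control 1 or freeze array 422, 460 or 464, 2 without control 3, 3 without 440 or 454, 10 without 450) and 0 to 1 higher (also 1 without control 2, 450 or 468). At 7 days after freeze it was 0 to 17 lower (1 without 450 or 468) and 0 to 1 higher (also 1 without 468), and at 6 hours 0 to 2 lower. At 3 days after contraction 0 to 30 were lower (0 without 435, 1 without 467, control 1 or control 2, 2 without control 3, 5 without 440 or 454, 6 without 418, 422, 425, 431 or 446, 16 without 450) and 0 to 1 higher, and at 7 days 0 to 1 lower. Freeze minus contraction gave 0 to 8 lower and 0 to 1 higher at 1 day, 0 to 21 and 0 to 1 at 3 days, and 0 to 2 and 0 to 1 at 7 days. From 3 to 7 days 0 to 26 were higher after freeze, and 0 to 24 higher (1 without 450) and 0 to 1 lower after contraction. The test for any change called 9 to 33 (9 without 468), and the interaction 0 to 1. In the other comparisons the counts stayed at 0. Of 42 called changes of single genes none reversed. Those that lost their call numbered 33, 28 and 28 without control 1, 2 and 3, 27 without 450 and 27 without 468. They numbered 10 without 435 or 467, 9 without 422, 464, 440 or 454 and 8 without 460. Leaving out any other array lost at most 6. The processing settings lost 10 with no filter, 8 with centring and 1 with quantile normalization. With all arrays, another probe set of Crat, Acads, Dlat, Dlst, Idh3g or Sucla2 left its changes uncalled, with the same sign. Other probe sets were not read without sample 436. The groups share no replicate numbers, so adjacent sample numbers were the 1 pairing tried.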
